A study of Mus musculus with 12 samples.

Results

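Cytochrome P450 enzymes of families 2, 3 and 4 were followed in mouse liver and in skin cells after carbon tetrachloride (CCl4) or vehicle. The 77 genes are those of the 57180 in the deposited table whose symbol is Cyp, then 2, 3 or 4, a 1-letter subfamily and a gene number, so that pseudogenes with an added suffix stay out. Family 2 has 48 of them, family 3 has 9 and family 4 has 20, in 19 subfamilies. The largest subfamilies are 2C with 15 members, 3A and 4F with 9 each, and 2D, 2J and 4A with 8 each.

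P450 enzymes are haem proteins of the endoplasmic reticulum that insert an oxygen atom from molecular oxygen into their substrate, with electrons passed on from NADPH by P450 reductase (Por) and in part by cytochrome b5. Families 2 and 3 oxidise drugs, solvents and steroids, and most members of family 4 hydroxylate fatty acids and their signalling derivatives. In the liver they are made mainly by hepatocytes, many of them in the zone around the central vein, and Cyp2e1 is the member best known for turning CCl4 into the trichloromethyl radical that injures these cells. Nuclear receptors set the level of several: CAR and PXR act on Cyp2b10, Cyp2c29 and Cyp3a11, PPAR-alpha acts on Cyp4a10 and Cyp4a14, and growth hormone shapes sex-biased members such as Cyp2d9 and Cyp4a12a.

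The 12 libraries form 4 groups of 3. Liver was sequenced as bulk RNA from C57 mice given CCl4 and from C57 mice given vehicle. CX3CR1+ cells of the dorsal skin were sequenced by smart-seq, which copies whole transcripts from small RNA amounts, from mice given CCl4 and from mice given vehicle, and all skin donors carried Cx3cr1-creER, an inducible Cre under the control of Cx3cr1, together with the Ai9 reporter. The design text speaks of hepatocytes and of biological replicates in each group, whereas the sample labels name liver. The sources used here give no dose, route, time after treatment, age or sex.

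All values are TPM as deposited, transcript abundances scaled for transcript length and to the same total in every library, so sequencing depth is unknown and no counting error can be given. In liver the composition of the libraries moved with the treatment. Mitochondrially encoded genes held 53.1% ± 5.68 of the TPM in CCl4 livers and 18% ± 1.22 in vehicle livers, and named nuclear genes held 22.4% ± 7.46 in CCl4 livers and 72.2% ± 1.53 in vehicle livers (SD, n = 3 each). Changes in liver were therefore computed on 2 scales: TPM as deposited, and TPM rescaled to the same total over named nuclear genes (the nuclear scale), which leaves out mitochondrial genes, predicted genes with a Gm number and IDs without a symbol. On the deposited scale the median of all tested genes changed by -0.59 (log2, CCl4 minus vehicle), and on the nuclear scale by 0.89. Changes are differences of log2(value + 1) with their standard error (SE), which understates changes of genes with low values, and a gene was called at a limma adjusted p under 0.05.

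Of the 77 members, 47 reached 1 TPM in at least 3 of the 6 liver libraries and were tested. As deposited, 41 of the 47 (87.2%) were called lower after CCl4, against 51.1% of all 10385 genes tested, and 1, Cyp4b1, was called higher, against 10.3% of all genes. The median change of the tested members was -2.15. On the nuclear scale 25 members (53.2%) were called lower, against 3.81% of 9783 genes, 6 were called higher (12.8%), against 69.9% of genes, and the members' median was -0.51. Under median-ratio scaling 36 members were lower and 3 higher, against 26.2% and 17.7% of genes, and under quantile normalization 33 were lower and 3 higher, against 24.8% and 17.1%. The same 25 members were lower under all 4 scalings, against 3.78% of genes. On either of the 2 main scales 41 of the 47 lay below the median of all tested genes. The other 16 members called lower as deposited were not called lower on the nuclear scale, and 9 of them, among them Cyp3a11, Cyp2c70 and Cyp2a5, then had a value above 0. A member could pass the filter through 1 group alone, so these counts and medians are descriptions.

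**Figure D1:**
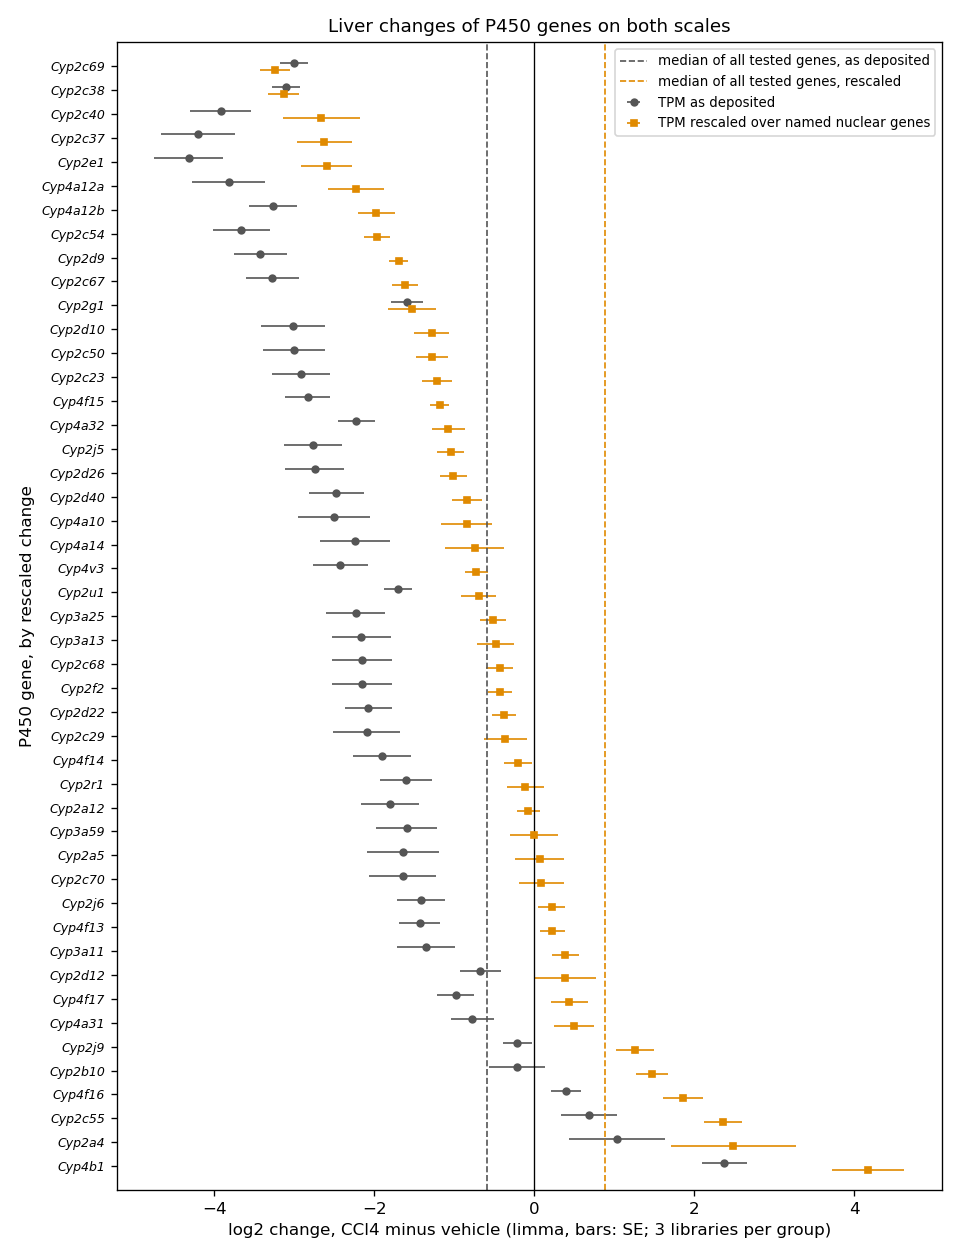
Change of each of the 47 tested members in liver, as the log2 difference of CCl4 minus vehicle on the x axis with bars of 1 SE, on the deposited scale and on the nuclear scale, with dashed lines at the medians of all tested genes. Cyp2e1 lies lowest at -4.32 as deposited and Cyp4b1 highest at 2.38, and all members other than Cyp2c38 and Cyp2c69 lie further right on the nuclear scale, where 25 members were called lower.

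In 41 of the 47 members all 3 CCl4 livers lay below all 3 vehicle livers as deposited, against 58.8% of genes, and in 2, Cyp2c55 and Cyp4b1, all 3 lay above, against 11.4%. CCl4 replicate 3 held the highest TPM of the CCl4 trio for 41 of the 47 members, and for 71% of all genes tested. That library also held the smallest mitochondrial share of the trio, at 46.6%, against 56.6% and 56.2% in replicates 1 and 2. The members' sum was 2086, 2004 and 4844 TPM in CCl4 livers, against 13857, 14578 and 14389 TPM in vehicle livers. Rescaled, the sum was 12058, 10611 and 15659.7 in CCl4 livers, against 19669.6, 19985 and 19646 in vehicle livers, so that the groups did not overlap on either scale.

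Promoters are shown for 5 members that span the range of the liver response: Cyp2e1 with the lowest log2(TPM + 1) change as deposited, Cyp2c69 with the largest fold in mean TPM, Cyp3a11 and Cyp2b10 as targets of PXR and CAR, and Cyp4b1, the member that rose. Each is the stretch of 250 bases before the RefSeq start on build GRCm38.p6, read 5′ to 3′ on the gene's own strand. Capitals mark matches to 4 motifs: CAAAGTCCA, a strong form of the site of HNF4A, TTGCNNAA for C/EBP and GTTAAT for HNF1, a part of its site, each on both strands, and TATAAA, the TATA box, on the gene's strand. None of these matches overlaps another in the windows shown.
Cyp2e1 (ENSMUSG00000025479), chr7:140763569-140763818, plus strand: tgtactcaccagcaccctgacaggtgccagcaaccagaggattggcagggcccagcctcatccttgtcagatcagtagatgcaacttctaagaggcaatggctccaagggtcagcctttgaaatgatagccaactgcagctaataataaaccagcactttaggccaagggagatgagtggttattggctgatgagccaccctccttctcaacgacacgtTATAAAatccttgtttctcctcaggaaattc
Cyp2c69 (ENSMUSG00000092008), chr19:39886770-39887019, minus strand: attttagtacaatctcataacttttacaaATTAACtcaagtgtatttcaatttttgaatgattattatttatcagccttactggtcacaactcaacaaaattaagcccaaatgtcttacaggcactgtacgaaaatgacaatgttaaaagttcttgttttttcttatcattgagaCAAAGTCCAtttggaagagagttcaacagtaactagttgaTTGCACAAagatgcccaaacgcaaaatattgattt
Cyp3a11 (ENSMUSG00000056035), chr5:145879855-145880104, minus strand: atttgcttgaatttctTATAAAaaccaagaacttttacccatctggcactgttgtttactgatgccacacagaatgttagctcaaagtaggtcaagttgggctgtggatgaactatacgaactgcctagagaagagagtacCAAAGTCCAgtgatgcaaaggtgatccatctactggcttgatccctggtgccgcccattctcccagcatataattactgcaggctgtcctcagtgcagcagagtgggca
Cyp2b10 (ENSMUSG00000030483), chr7:25897408-25897657, plus strand: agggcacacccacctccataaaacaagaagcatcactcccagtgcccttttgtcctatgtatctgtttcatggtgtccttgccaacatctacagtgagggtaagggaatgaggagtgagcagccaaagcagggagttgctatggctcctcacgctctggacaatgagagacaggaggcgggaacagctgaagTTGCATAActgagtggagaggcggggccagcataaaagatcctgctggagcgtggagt
Cyp4b1 (ENSMUSG00000028713), chr4:115647722-115647971, minus strand: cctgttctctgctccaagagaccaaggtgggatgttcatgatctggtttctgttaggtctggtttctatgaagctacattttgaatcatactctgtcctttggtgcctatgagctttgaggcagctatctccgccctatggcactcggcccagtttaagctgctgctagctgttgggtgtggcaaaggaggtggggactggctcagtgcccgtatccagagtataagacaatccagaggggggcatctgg

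Cyp2c69 holds an HNF4A, a C/EBP and a GTTAAT match, Cyp3a11 holds an HNF4A match with a distant TATAAA, Cyp2b10 a C/EBP match, Cyp2e1 a TATA box, and Cyp4b1 none of the 4. RefSeq had a window, running to 50 bases past the start, for 62 of the 77 members. CAAAGTCCA stood in 10 of them (16.1%), against 0.555% of 27025 genes, and all 10 are members of 2C (Cyp2c40, Cyp2c65, Cyp2c67, Cyp2c68, Cyp2c69 and Cyp2c70) or 3A (Cyp3a11, Cyp3a16, Cyp3a41a and Cyp3a41b). TATAAA stood in 32.3% of members and 9.77% of genes, TTGCNNAA in 24.2% and 12.2%, and GTTAAT in 16.1% and 8.24%. Windows of neighbouring paralogs descend from common copies, so these matches are not independent, and a match is no evidence of binding.

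Cyp2e1 had the lowest change of the 47 members in log2(TPM + 1) as deposited. It had 123, 56.3 and 211 TPM in CCl4 livers, against 2049, 2498 and 2324 TPM in vehicle livers. Every CCl4 library lay far below every vehicle library, and the means were 130.1 ± 77.6 TPM in CCl4 livers and 2290.2 ± 227 TPM in vehicle livers (SD, n = 3 each), 17.6-fold lower after CCl4. The place of Cyp2e1 depended on how low values were weighed and on the scaling. In mean TPM, Cyp2c69 (183-fold), Cyp2c38 (77.2-fold), Cyp2g1 (25-fold) and Cyp2c40 (17.9-fold) were lower by a larger fold. With a pseudocount of 0.1 Cyp2c69, Cyp2c38, Cyp2c40 and Cyp2c37 lay below it. On the nuclear scale Cyp2c69 (-3.24), Cyp2c38 (-3.13), Cyp2c40 (-2.66) and Cyp2c37 (-2.62) lay below it. Under quantile normalization (-2.74 for Cyp2e1) these members lay below it too, as did Cyp4a12a (-2.88) and Cyp4a12b (-2.77). Under median-ratio scaling Cyp2e1 was lowest (-3.70). As deposited the log2 change of Cyp2e1 was -4.32 ± 0.43 (SE, limma adjusted p = 4.54e-05). On the nuclear scale Cyp2e1 stood at 711, 298 and 682 in CCl4 livers, against 2908, 3425 and 3172 in vehicle livers, a log2 change of -2.59 ± 0.32 (limma adjusted p = 0.000616). The groups stayed apart on that scale too. Cyp2e1 ranked 5, 11 and 7 among the 77 members in CCl4 livers, and 1 in all vehicle livers. Leaving out 1 library at a time gave changes between -4.76 and -3.82 as deposited.

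Set against Cyp3a11 within each library, a ratio that rescaling a whole library leaves as it is, Cyp2e1 stood at 0.262, 0.0877 and 0.166 in CCl4 livers, against 1.06, 1.41 and 1.26 in vehicle livers. The ratio to Cyp2c29 was 0.412, 0.304 and 0.314 in CCl4 livers, against 1.39, 1.83 and 1.61 in vehicle livers. In both ratios Cyp2e1 was below its partner in each CCl4 liver and above it in each vehicle liver.

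CAR and PXR are the receptors that sense foreign compounds, and 3 of their target genes are members. Cyp3a11, the main drug-oxidising P450 of its subfamily in mouse liver, had 470.0, 642 and 1268 TPM in CCl4 livers, against 1936, 1776 and 1844 TPM in vehicle livers. All CCl4 livers lay below all vehicle livers on that scale, with a log2 change of -1.35 ± 0.36 (SE, limma adjusted p = 0.0079). Rescaled over nuclear genes, Cyp3a11 had 2716, 3399 and 4099.7 in CCl4 livers, against 2748, 2435 and 2518 in vehicle livers, a log2 change of 0.39 ± 0.17 (limma adjusted p = 0.0716), so its value lay below 0 as deposited and above 0 here, without a call. Median-ratio scaling gave -0.73 and quantile normalization 0.45. Cyp2c29 had 299, 185 and 672 TPM in CCl4 livers, against 1476, 1369 and 1443 TPM in vehicle livers, with no overlap, a log2 change of -2.09 ± 0.42 (SE, limma adjusted p = 0.00167), and on the nuclear scale a log2 change of -0.36 ± 0.27 (limma adjusted p = 0.264). Cyp2b10, the classic CAR target, had 16.4, 12.6 and 35.3 TPM in CCl4 livers, against 22.7, 21.9 and 23.7 TPM in vehicle livers, with CCl4 replicate 3 above and the other CCl4 livers below all vehicle livers. This gave a log2 change of -0.21 ± 0.35 (SE, limma adjusted p = 0.604) as deposited. It was higher on the nuclear scale, with 94.8, 66.8 and 114 in CCl4 livers, against 32.2, 30 and 32.4 in vehicle livers, a log2 change of 1.48 ± 0.20 (limma adjusted p = 0.000788), and the groups did not overlap there. Of these 3 members, 2 were lower and none higher as deposited (median -1.35), and on the nuclear scale none was lower and 1, Cyp2b10, higher (median 0.39). Over all genes 51.1% were lower and 10.3% higher as deposited. On the nuclear scale 3.81% of all genes were lower and 69.9% higher, so a gene called higher there is common. The genes of the receptors were chosen here for their role. Nr1i2, which encodes PXR, had log2 changes of -1.39 ± 0.31 as deposited (limma adjusted p = 0.00297) and 0.24 ± 0.18 on the nuclear scale (limma adjusted p = 0.261). Nr1i3, which encodes CAR, had log2 changes of -1.33 ± 0.30 as deposited (limma adjusted p = 0.00316) and 0.37 ± 0.18 on the nuclear scale (limma adjusted p = 0.097).

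**Figure D2:**
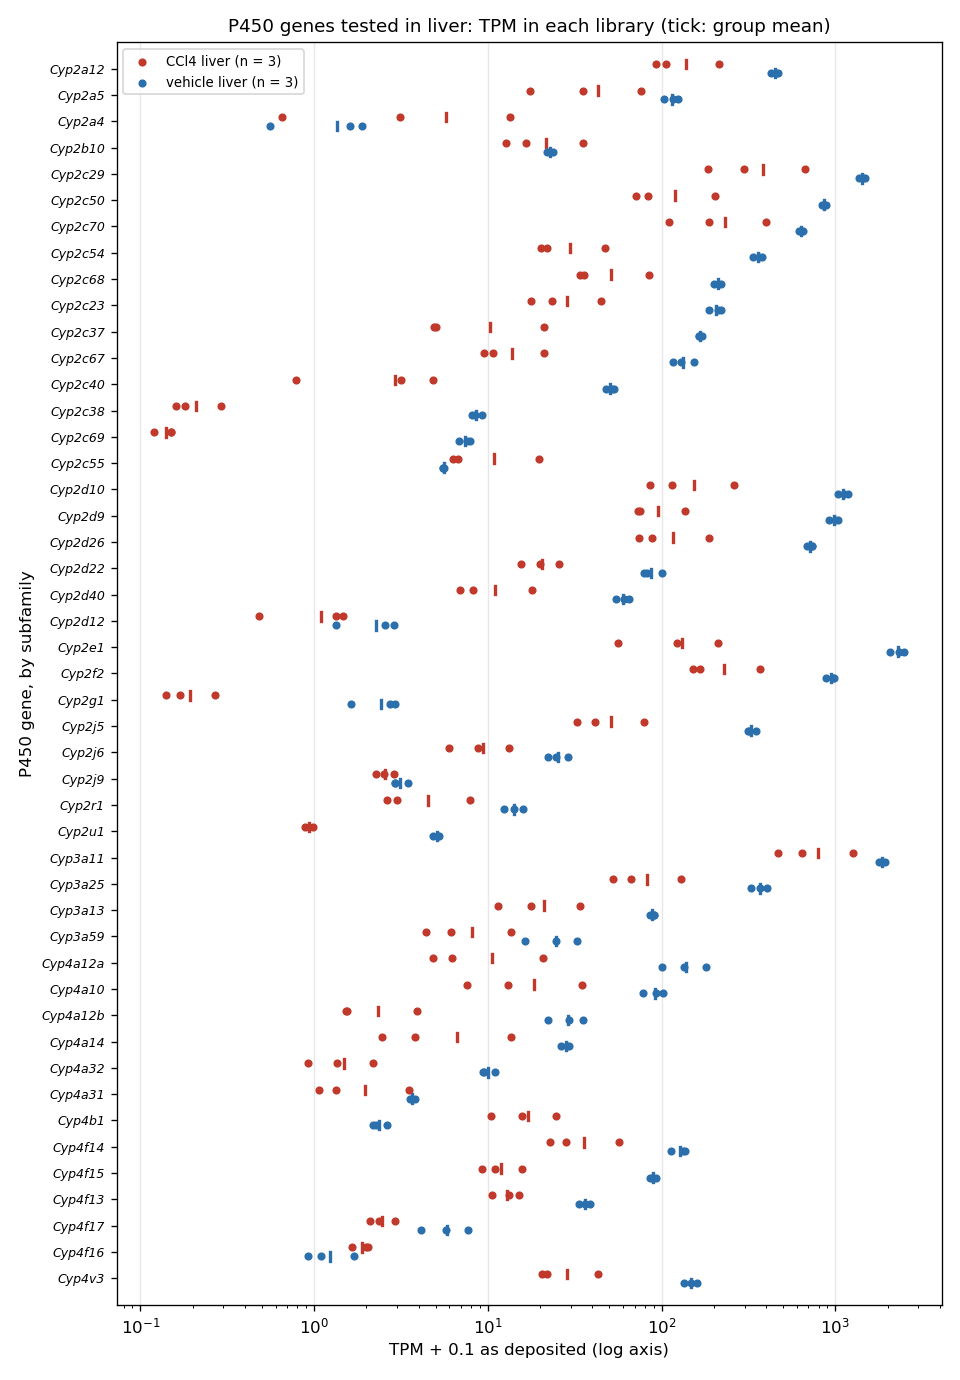
TPM as deposited, plus 0.1, of the 47 tested members on a log axis, 1 point per library of CCl4 livers and vehicle livers, with a tick at each group mean. Cyp2e1 sits at 56.3 to 211 TPM in CCl4 livers and at 2049 to 2498 TPM in vehicle livers, while Cyp4b1 sits higher in CCl4 livers, at 10.3 to 24.7 TPM.

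Subfamily 2C, whose members lie on chromosome 19 and oxidise arachidonic acid, steroids and drugs, held the largest number of tested members. As deposited 11 of its 12 tested members were lower (median -3.00), against 51.1% of all genes. Under all 4 scalings 9 were lower, against 3.78% of genes. Cyp2c69, a female-biased member, had 0.02, 0.05 and 0.05 TPM in CCl4 livers, against 7.47, 6.7 and 7.82 TPM in vehicle livers, a log2 change of -3.00 ± 0.17 (SE, limma adjusted p = 9.6e-07). Cyp2c38 had 0.06, 0.08 and 0.19 TPM in CCl4 livers, against 9.13, 7.98 and 8.36 TPM in vehicle livers, a log2 change of -3.10 ± 0.17 (SE, limma adjusted p = 9.6e-07). Both were near 0 in each CCl4 liver. Cyp2c69 and Cyp2c38, which are among these 9, passed the filter through vehicle livers alone. That fixes their direction as deposited, so their changes and p-values are descriptions. With a mean of 7.33 TPM in vehicle livers, Cyp2c69 was 183-fold lower in mean TPM, and Cyp2c38 was 77.2-fold lower.

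Cyp2c37, Cyp2c50 and Cyp2c54, a group of close relatives expressed around the central vein, all stayed lower. Cyp2c37 had 4.93, 4.77 and 21 TPM in CCl4 livers, against 164, 171 and 165 TPM in vehicle livers, a log2 change of -4.20 ± 0.46 (SE, limma adjusted p = 7.1e-05). Cyp2c54 had 21.7, 20.1 and 46.8 TPM in CCl4 livers, against 378, 334 and 364 TPM in vehicle livers, a log2 change of -3.66 ± 0.36 (SE, limma adjusted p = 4.09e-05). Cyp2c50, the most abundant of the group, had 83.8, 70.9 and 204 TPM in CCl4 livers, against 882, 841 and 857 TPM in vehicle livers, a log2 change of -3.00 ± 0.39 (SE, limma adjusted p = 0.000197). No library of either group crossed into the other for these members. On the nuclear scale Cyp2c37 had a log2 change of -2.62 ± 0.34 (limma adjusted p = 0.000679), Cyp2c54 had a log2 change of -1.96 ± 0.16 (limma adjusted p = 0.000228) and Cyp2c50 had a log2 change of -1.27 ± 0.20 (limma adjusted p = 0.00128). Cyp2c37 to Cyp2c29, a ratio within 2C, was 0.0165, 0.0258 and 0.0312 in CCl4 livers, against 0.111, 0.125 and 0.114 in vehicle livers.

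Female-biased Cyp2c40 had 3.05, 0.69 and 4.74 TPM in CCl4 livers, against 52.8, 47.5 and 51.5 TPM in vehicle livers, a log2 change of -3.92 ± 0.38 (SE, limma adjusted p = 4.09e-05), and on the nuclear scale a log2 change of -2.66 ± 0.48 (limma adjusted p = 0.00209). Cyp2c67 had 10.6, 9.45 and 20.9 TPM in CCl4 livers, against 117, 153 and 129 TPM in vehicle livers, with a nuclear-scale log2 change of -1.61 ± 0.16 (limma adjusted p = 0.000407). Cyp2c23, an arachidonic acid epoxygenase, had 23.4, 17.6 and 44.8 TPM in CCl4 livers, against 187, 221 and 210.1 TPM in vehicle livers, with a nuclear-scale log2 change of -1.21 ± 0.19 (limma adjusted p = 0.00109). These 3 members were lower in every CCl4 liver on both scales. Cyp2c68 was close to the threshold once rescaled, at a log2 change of -0.43 ± 0.17 (limma adjusted p = 0.0488), with 33.8 to 84.1 TPM in CCl4 livers and 200.1 to 219.9 TPM in vehicle livers. Cyp2c70, which makes muricholic acids, the bile acids typical of mice, had 187, 110.0 and 400.4 TPM in CCl4 livers, against 617, 648 and 637 TPM in vehicle livers, a log2 change of -1.64 ± 0.42 (SE, limma adjusted p = 0.00644), and a log2 change of 0.09 ± 0.28 (limma adjusted p = 0.78) on the nuclear scale.

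Cyp2c55 was the 2C member with the opposite order. It had 6.63, 6.23 and 19.5 TPM in CCl4 livers, against 5.52, 5.42 and 5.43 TPM in vehicle livers. All CCl4 livers lay above all vehicle livers, by a small step in replicates 1 and 2 and a larger one in replicate 3, and the deposited scale gave no call, a log2 change of 0.69 ± 0.35 (SE, limma adjusted p = 0.107). On the nuclear scale it was higher at 38.3, 33 and 63.1 in CCl4 livers, against 7.84, 7.43 and 7.41 in vehicle livers, a log2 change of 2.36 ± 0.24 (limma adjusted p = 0.000407). It was also called higher under median-ratio scaling (1.22) and quantile normalization (1.23), and as deposited without CCl4 replicate 2 (0.95).

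Subfamily 2D lies on chromosome 15, and all 6 tested members were lower as deposited (median -2.60), 4 of them under all 4 scalings. Over all genes these shares were 51.1% and 3.78%. Cyp2d9, a steroid 16-alpha-hydroxylase higher in males, had 75.4, 72.9 and 137 TPM in CCl4 livers, against 918, 1036 and 1001 TPM in vehicle livers, a log2 change of -3.42 ± 0.33 (SE, limma adjusted p = 3.98e-05). Its CCl4 livers were far below all vehicle livers, and on the nuclear scale it kept a log2 change of -1.69 ± 0.12 (limma adjusted p = 0.000154). Cyp2d10 had 115, 85.9 and 260.3 TPM in CCl4 livers, against 1033, 1185 and 1119 TPM in vehicle livers, and a log2 change of -1.28 ± 0.22 (limma adjusted p = 0.00165) on the nuclear scale. Cyp2d26 had 88.2, 74.2 and 186 TPM in CCl4 livers, against 684, 738 and 731 TPM in vehicle livers, and a log2 change of -1.01 ± 0.17 (limma adjusted p = 0.00155) on the nuclear scale. Both were lower in every CCl4 liver. Cyp2d40 ranged from 6.77 to 17.9 TPM in CCl4 livers and from 54.5 to 64.6 TPM in vehicle livers, and was lower on both scales (nuclear scale -0.84 ± 0.19, limma adjusted p = 0.00532). Cyp2d22 missed the call on the nuclear scale at a log2 change of -0.38 ± 0.15 (limma adjusted p = 0.0506), with 15.4 to 25.6 TPM in CCl4 livers and 79 to 99.9 TPM in vehicle livers. Cyp2d12, at most 2.78 TPM in any library, overlapped between the groups, and its call (-0.67, limma adjusted p = 0.0421) was lost without CCl4 replicate 1 or 3 or vehicle replicate 1 or 3, and on the nuclear scale it stood at 0.39.

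Sex-biased members could be read across subfamilies. All 4 listed male-biased members, Cyp2d9, Cyp4a12a, Cyp4a12b and Cyp2u1, were lower on both scales, against 51.1% and 3.81% of all genes. Their median was -3.34 as deposited and -1.83 on the nuclear scale, against -0.59 and 0.89 over all genes. Cyp2u1 passed the filter through vehicle livers alone, which fixes its direction as deposited. Cyp4a12a, an androgen-dependent fatty acid omega-hydroxylase, had 4.76, 6.12 and 20.7 TPM in CCl4 livers, against 101, 180.2 and 135 TPM in vehicle livers, a log2 change of -3.82 ± 0.46 (SE, limma adjusted p = 0.000118). Cyp4a12b, its near-identical neighbour, had 1.43, 1.45 and 3.82 TPM in CCl4 livers, against 22.2, 35.1 and 29.1 TPM in vehicle livers, a log2 change of -3.26 ± 0.30 (SE, limma adjusted p = 3.28e-05). Both fell in each CCl4 liver below each vehicle liver. Of the 9 listed female-biased members only Cyp2a4, Cyp2c40 and Cyp2c69 could be tested, and Cyp2c40 and Cyp2c69 were lower on both scales. Cyp2c69 too passed the filter through vehicle livers alone. Cyp2a4 had 0.55, 3.01 and 13.4 TPM in CCl4 livers, against 1.78, 0.46 and 1.51 TPM in vehicle livers, with the groups overlapping, a log2 change of 1.04 ± 0.60 (SE, limma adjusted p = 0.147), and was called higher on the nuclear scale at a log2 change of 2.49 ± 0.78 (limma adjusted p = 0.0212). As deposited it was also called without CCl4 replicate 1 (1.81) or vehicle replicate 3 (1.15). Cyp2b13 was listed at 0 in all 6 liver libraries.

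Other members of family 2 with single or few genes in liver spread widely. Cyp2f2, which activates naphthalene and in liver marks the zone around the portal vein, had 152, 167 and 370.3 TPM in CCl4 livers, against 879.5, 979.9 and 964 TPM in vehicle livers, a log2 change of -2.15 ± 0.37 (SE, limma adjusted p = 0.000757), and a log2 change of -0.42 ± 0.15 (limma adjusted p = 0.0404) on the nuclear scale. Its CCl4 livers did not reach the vehicle range. Cyp2a5, the coumarin 7-hydroxylase, had 17.3, 35.2 and 75.9 TPM in CCl4 livers, against 124, 104 and 116 TPM in vehicle livers, a log2 change of -1.64 ± 0.45 (SE, limma adjusted p = 0.00868), and a log2 change of 0.07 ± 0.31 (limma adjusted p = 0.844) on the nuclear scale. Cyp2a12, a steroid 7-alpha-hydroxylase, had 93, 106 and 215 TPM in CCl4 livers, against 428, 467 and 456 TPM in vehicle livers, and a log2 change of -0.07 ± 0.14 (limma adjusted p = 0.67) on the nuclear scale. Both 2A members were lower as deposited without a call once rescaled.

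Cyp2j5, an epoxygenase of arachidonic acid, had 41.4, 32.5 and 79.3 TPM in CCl4 livers, against 313, 351 and 319 TPM in vehicle livers, a log2 change of -2.76 ± 0.36 (SE, limma adjusted p = 0.000184), and stayed lower on the nuclear scale at a log2 change of -1.04 ± 0.17 (limma adjusted p = 0.00142). Cyp2j6 had 5.88, 8.66 and 13.2 TPM in CCl4 livers, against 22.2, 28.8 and 24.5 TPM in vehicle livers, a log2 change of -1.41 ± 0.30 (SE, limma adjusted p = 0.0022), and a log2 change of 0.22 ± 0.17 (limma adjusted p = 0.268) on the nuclear scale. Cyp2j9, with 2.17 to 2.79 TPM in CCl4 livers and 2.82 to 3.38 TPM in vehicle livers, had no call as deposited (-0.21) and was higher on the nuclear scale (1.26 ± 0.24, limma adjusted p = 0.00261). Within 2J the 3 tested members thus ended lower, without a call and higher on that scale, where 69.9% of all genes were called higher (median 0.89). Median-ratio scaling (0.24) and quantile normalization (0.07) gave no call for Cyp2j9. Cyp2r1, a vitamin D 25-hydroxylase, had 2.54, 2.91 and 7.76 TPM in CCl4 livers, against 14.1, 12.2 and 15.8 TPM in vehicle livers, and a log2 change of -0.11 ± 0.23 (limma adjusted p = 0.68) on the nuclear scale. Cyp2u1, a fatty acid hydroxylase, had 0.79, 0.88 and 0.83 TPM in CCl4 livers, against 4.72, 5.11 and 5.08 TPM in vehicle livers, and was lower on both scales. Cyp2g1, known from olfactory tissue, had 0.04 to 0.17 TPM in CCl4 livers and 1.53 to 2.83 TPM in vehicle livers, and was lower on both scales too. Cyp2u1 and Cyp2g1 passed the filter through vehicle livers alone, which fixes their direction as deposited.

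In 3A, on chromosome 5, all 4 tested members were lower as deposited (median -1.88) and 1 on the nuclear scale (median -0.24). Over all genes 51.1% and 3.81% were lower. Cyp3a25 had 52.6, 66.4 and 129 TPM in CCl4 livers, against 403, 326 and 369 TPM in vehicle livers, a log2 change of -2.23 ± 0.37 (SE, limma adjusted p = 0.000604), and a log2 change of -0.51 ± 0.16 (limma adjusted p = 0.0237) on the nuclear scale. Cyp3a13 had 17.6, 11.3 and 33.9 TPM in CCl4 livers, against 90.4, 85.2 and 89.8 TPM in vehicle livers, a log2 change of -2.16 ± 0.37 (SE, limma adjusted p = 0.000739), and a log2 change of -0.48 ± 0.23 (limma adjusted p = 0.0907) on the nuclear scale. Both kept the CCl4 livers below the vehicle livers as deposited. Cyp3a59, a near copy of Cyp3a25, had 4.29, 6.07 and 13.5 TPM in CCl4 livers, against 32.5, 16.3 and 24.7 TPM in vehicle livers, and a log2 change of 0.00 ± 0.30 (limma adjusted p = 0.995) on the nuclear scale.

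The 4A members on chromosome 4 hydroxylate the far end of fatty acids. All 6 tested members were lower as deposited (median -2.37) and 4 on the nuclear scale (median -0.96), against 51.1% and 3.81% of all genes. Cyp4a10, a target of PPAR-alpha, had 7.46, 13 and 34.7 TPM in CCl4 livers, against 102, 78 and 93.2 TPM in vehicle livers, a log2 change of -2.50 ± 0.45 (SE, limma adjusted p = 0.00095), and a log2 change of -0.84 ± 0.32 (limma adjusted p = 0.0449) on the nuclear scale. Cyp4a14, another target, had 2.35, 3.73 and 13.5 TPM in CCl4 livers, against 28.5, 26.4 and 29.1 TPM in vehicle livers, a log2 change of -2.24 ± 0.44 (SE, limma adjusted p = 0.00146), and a log2 change of -0.74 ± 0.37 (limma adjusted p = 0.105) on the nuclear scale. In both, CCl4 replicate 3 came nearest to the vehicle livers without reaching them. Cyp4a32 ranged from 0.82 to 2.08 TPM in CCl4 livers and from 9.26 to 10.9 TPM in vehicle livers and was lower on both scales. Cyp4a31 was low in all livers, at 0.97 to 3.41 TPM with CCl4 and 3.45 to 3.69 TPM with vehicle, and its call (-0.77, limma adjusted p = 0.0304) was lost without CCl4 replicate 1 or 2 or vehicle replicate 2. The 4 listed PPAR-alpha targets had a median of -2.23 as deposited, with 4 lower, and -0.79 on the nuclear scale, with 2 lower, Cyp4a10 and Cyp4a32. Ppara, the gene of the receptor itself, had log2 changes of -1.50 ± 0.48 as deposited (limma adjusted p = 0.019) and -0.05 ± 0.52 on the nuclear scale (limma adjusted p = 0.93). Cyp4a12a to Cyp4a10 was 0.638, 0.47 and 0.596 in CCl4 livers, against 0.99, 2.31 and 1.45 in vehicle livers, a lower ratio in each CCl4 liver than in each vehicle liver.

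Subfamily 4F, on chromosome 17 other than Cyp4f18 on chromosome 8, hydroxylates leukotrienes and long fatty acids. Cyp4f15 had 9.15, 10.9 and 15.6 TPM in CCl4 livers, against 85.2, 92.8 and 88.5 TPM in vehicle livers, a log2 change of -2.83 ± 0.28 (SE, limma adjusted p = 4.92e-05), and was the 4F member that stayed lower on the nuclear scale, at a log2 change of -1.18 ± 0.12 (limma adjusted p = 0.000428). Cyp4f14, a leukotriene B4 hydroxylase, had 28.2, 22.6 and 56.4 TPM in CCl4 livers, against 113, 136 and 132 TPM in vehicle livers, a log2 change of -1.90 ± 0.36 (SE, limma adjusted p = 0.00119), and a log2 change of -0.20 ± 0.18 (limma adjusted p = 0.343) on the nuclear scale. Neither member overlapped between the groups. Cyp4f13 had 10.4, 13.2 and 15 TPM in CCl4 livers, against 33.3, 36.1 and 38.8 TPM in vehicle livers, and a log2 change of 0.23 ± 0.16 (limma adjusted p = 0.226) on the nuclear scale. Cyp4f17 had 2 to 2.81 TPM in CCl4 livers and 4.02 to 7.63 TPM in vehicle livers, without a call on the nuclear scale (0.44 ± 0.23, limma adjusted p = 0.124). Cyp4f16 had 1.55, 1.88 and 1.93 TPM in CCl4 livers, against 0.82, 1.6 and 1 TPM in vehicle livers, with 1 vehicle liver inside the CCl4 range. Its log2 change was 0.40 ± 0.19 (SE, limma adjusted p = 0.0912) as deposited and 1.86 ± 0.25 (limma adjusted p = 0.00072) on the nuclear scale, where it was called higher. The same call was made under median-ratio scaling (0.75) and quantile normalization (0.47). Cyp4v3, whose human counterpart CYP4V2 is mutated in a crystalline retinal dystrophy, had 21.8, 20.4 and 42.7 TPM in CCl4 livers, against 135, 160.4 and 148 TPM in vehicle livers, a log2 change of -2.42 ± 0.34 (SE, limma adjusted p = 0.000261), and a log2 change of -0.72 ± 0.14 (limma adjusted p = 0.00281) on the nuclear scale.

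Cyp4b1, which activates furans and is best known from lung, was the member called higher under each of the 4 scalings, against 9.87% of genes. It had 15.6, 24.7 and 10.3 TPM in CCl4 livers, against 2.52, 2.17 and 2.08 TPM in vehicle livers. All CCl4 livers were above all vehicle livers, and unlike 41 of the members it was lowest among the CCl4 livers in replicate 3. The log2 change was 2.38 ± 0.28 (SE, limma adjusted p = 0.000118), and the mean TPM was 7.48-fold higher. On the nuclear scale it had 90.1, 131 and 33.4 in CCl4 livers, against 3.58, 2.97 and 2.84 in vehicle livers, a log2 change of 4.18 ± 0.45 (limma adjusted p = 0.000443). A single fit over all 12 libraries gave the same 2.38 without a call.

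**Figure D3:**
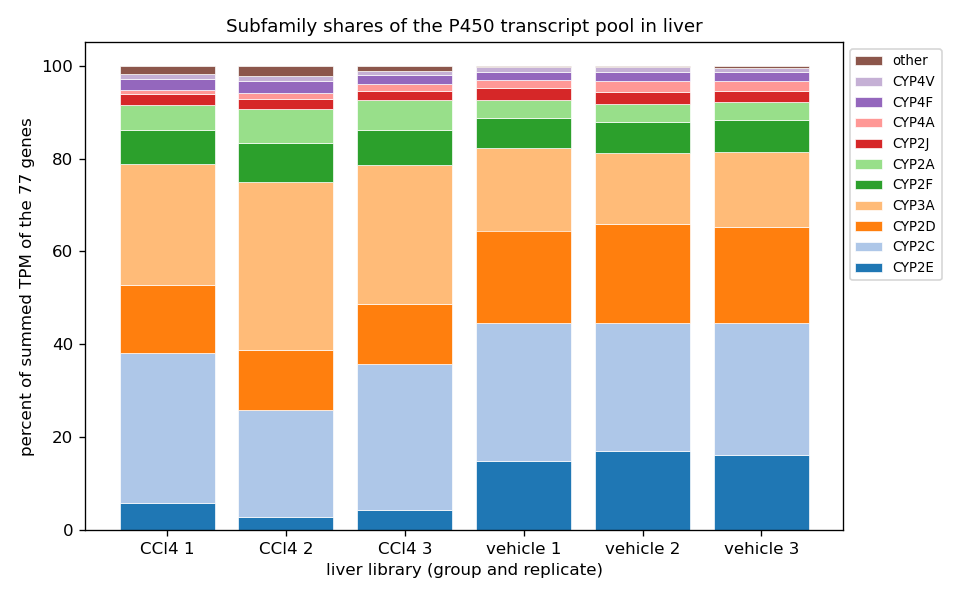
Share of each subfamily in the summed TPM of the 77 members, in percent on the y axis, as 1 stacked bar for each CCl4 liver and each vehicle liver. Subfamily 2E lies at 2.81% to 5.9% in CCl4 livers and 14.8% to 17.1% in vehicle livers, and 3A lies at 26.1% to 36.2% in CCl4 livers and 15.1% to 17.8% in vehicle livers.

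Shares of the members' summed TPM stay the same when a whole library is multiplied by a common factor, which quantile normalization is not. They show how the mixture of these P450 transcripts changed as deposited. Cyp2e1, alone in 2E, held 4.35% ± 1.54 in CCl4 livers and 16% ± 1.18 in vehicle livers (SD, n = 3 each). Subfamily 3A held 30.7% ± 5.12 in CCl4 livers and 16.4% ± 1.33 in vehicle livers, most of it Cyp3a11 with 26.9% ± 4.79 in CCl4 livers and 13% ± 0.905 in vehicle livers. Subfamily 2D held 13.5% ± 0.856 in CCl4 livers and 20.8% ± 0.717 in vehicle livers. None of these groups overlapped. Subfamily 2C held 28.9% ± 5.13 in CCl4 livers and 28.5% ± 1.12 in vehicle livers, with overlap, although Cyp2c50 within it held 3.92% ± 0.345 in CCl4 livers and 6.03% ± 0.307 in vehicle livers. Subfamily 2A held 6.33% ± 0.973 in CCl4 livers and 3.97% ± 0.0444 in vehicle livers, and 4A held 1.27% ± 0.372 in CCl4 livers and 2.1% ± 0.181 in vehicle livers. Cyp3a11 came first in all CCl4 livers, followed by Cyp2c29, whereas Cyp2e1, Cyp3a11 and Cyp2c29 led in that order in all vehicle livers. The 6 most abundant members held 64.5% to 65.8% of the sum in CCl4 livers and 59.9% to 60.7% in vehicle livers.

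The 7 members listed as pericentral, that is high around the central vein, were all lower as deposited (median -3.00), and 4, Cyp2e1, Cyp2c37, Cyp2c50 and Cyp2c54, were lower on the nuclear scale (median -1.27). Of all 47 tested members 87.2% were lower as deposited and 53.2% on the nuclear scale, where the pericentral share was similar at 57.1%. Over all genes these shares were 51.1% and 3.81%. The other 3, Cyp2c29, Cyp3a11 and Cyp2a5, had nuclear-scale values of -0.36, 0.39 and 0.07. Of the 30 members not tested in liver, 12 were listed at 0 in all 6 liver libraries, and the other 18 reached at most 2.44 TPM, in Cyp2a22.

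Many of these genes are recent duplicates, which limits single values. Among 66 members with a coding sequence in GENCODE M21 and a relative in their subfamily, 23 were at least 95% identical to the nearest one. Cyp4a12a and Cyp4a12b were 98.6% identical, Cyp2a4 and Cyp2a5 98.4%, Cyp2c67 and Cyp2c69 97.7%, Cyp3a25 and Cyp3a59 97.5%, Cyp4a10 and Cyp4a32 97.2%, and Cyp2c37 and Cyp2c50 96.1%. The sources used here do not say how reads shared by such copies were divided, so the split within these pairs is uncertain.

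The genes that serve the P450 enzymes were read in the same fits, where 51.1% of all genes were lower and 10.3% higher as deposited, and 3.81% were lower and 69.9% higher on the nuclear scale. All 6 genes of electron transfer were lower as deposited (median -1.70), and none was called on the nuclear scale (median -0.02). Por had log2 changes of -1.24 ± 0.38 as deposited (limma adjusted p = 0.0144) and 0.47 ± 0.25 on the nuclear scale (limma adjusted p = 0.119). Cyb5b, the cytochrome b5 of the outer mitochondrial membrane, had log2 changes of -1.96 ± 0.38 as deposited (limma adjusted p = 0.00145) and -0.26 ± 0.22 on the nuclear scale. Of 12 genes of haem synthesis and breakdown, 10 were lower and 1, Hmox1, higher as deposited (median -1.32), and none was lower and 5 higher on the nuclear scale (median 0.33), a smaller share than the 69.9% of all genes. Hmox1, the haem oxygenase that opens the haem ring, had 25.7, 24.7 and 14.8 TPM in CCl4 livers, against 2.13, 2.82 and 2.69 TPM in vehicle livers, a log2 change of 2.65 ± 0.26 (limma adjusted p = 4.09e-05), and a log2 change of 4.45 ± 0.40 on the nuclear scale (limma adjusted p = 0.000299). Alas1, the first enzyme of haem synthesis, had log2 changes of -1.41 ± 0.49 as deposited (limma adjusted p = 0.027) and 0.31 ± 0.41 on the nuclear scale (limma adjusted p = 0.505), and its deposited call was lost without CCl4 replicate 1 or 2 or vehicle replicate 2.

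Of 12 transcription factors that act on P450 genes, 11 were lower as deposited (median -1.38), and 1 was lower and 3 higher on the nuclear scale (median -0.07). Over all genes 51.1% were lower as deposited (median -0.59), and 3.81% were lower and 69.9% higher on the nuclear scale (median 0.89). Nr0b2, the corepressor SHP, was lower on both scales, at 3.29, 6.24 and 13.9 TPM in CCl4 livers, against 35.6, 51.7 and 41.4 TPM in vehicle livers. Hnf4a, the hepatocyte nuclear receptor whose site was searched above, had log2 changes of -1.98 ± 0.40 as deposited (limma adjusted p = 0.00164) and -0.29 ± 0.24 on the nuclear scale (limma adjusted p = 0.304). Of 10 epoxide hydrolases and oxidases outside these families, 9 were lower as deposited (median -1.73), and 3 were lower and 2 higher on the nuclear scale (median -0.06). Cyp8b1, the sterol 12-alpha-hydroxylase of bile acid synthesis, had 4.99, 12.9 and 12.9 TPM in CCl4 livers, against 172, 167 and 181 TPM in vehicle livers, and was lower on both scales (as deposited -4.05 ± 0.36, limma adjusted p = 2.15e-05). Aox3, an aldehyde oxidase, and Ephx2, the soluble epoxide hydrolase that opens the epoxides made by 2C and 2J enzymes, were the other 2 lower on both scales.

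Markers of cell types moved with the same contrast. All 10 hepatocyte markers were lower as deposited (median -2.38), against 51.1% of genes. Their sums were 12452 to 29762 TPM in CCl4 livers and 62164 to 69263 TPM in vehicle livers. On the nuclear scale 6 were lower and 1 higher (median -0.64), against 3.81% and 69.9% of genes. Of the markers of 5 other cell types, those that passed the filter were called higher on both scales, against 10.3% and 69.9% of genes. A marker near 0 in vehicle livers could pass it through CCl4 livers alone, which fixes its direction, so these counts are descriptions, and the sums below are over all markers listed. For Kupffer cells, the resident macrophages, 12 of 12 were tested, with sums of 139 to 361 TPM in CCl4 livers and 31.6 to 81 TPM in vehicle livers. For liver endothelium 8 of 8 were tested, with 165 to 544 TPM in CCl4 livers and 26.6 to 34.7 TPM in vehicle livers. For stellate cells 7 of 10 listed were tested, with 95 to 197 TPM in CCl4 livers and 8.81 to 12.4 TPM in vehicle livers. For monocytes 6 of 10 were tested, with 122 to 425 TPM in CCl4 livers and 8.33 to 16.3 TPM in vehicle livers. For neutrophils 4 of 8 were tested, with 33.1 to 354 TPM in CCl4 livers and 0.12 to 0.86 TPM in vehicle livers. No marker of these lists or of the hepatocyte list was listed at 0 in all CCl4 livers, and Chil3, Ly6g, Mmp8, Mpo and Acta2 were listed at 0 in all vehicle livers. Their part in the P450 results was not tested. In bulk liver, fewer hepatocytes and less P450 RNA per hepatocyte cannot be told apart.

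In the CX3CR1+ cells of skin, P450 transcripts of these families were scarce, and 4 of the 6 libraries stood apart in other transcripts. CCl4 replicate 3 had few macrophage and Langerhans cell markers, CCl4 replicate 2 many adipocyte transcripts, and replicate 1 of both groups more genes above 0, with values given beside the genes concerned. The members' sum was 186, 528 and 211 TPM in CCl4 skin cells, against 148, 351 and 158 TPM in vehicle skin cells. The groups overlapped, and the leading genes differed from library to library. Of the 15 members tested, limma called none (0% of 13767 genes were called), at a smallest unadjusted p of 0.159 for members. At an unadjusted p under 0.05 limma had 288 genes and no member, and leaving out any 1 of the 6 libraries gave no call either. Changes ran from -1.65 to 1.60 with SE of 0.49 to 1.44, so differences of this size could not be resolved at this spread, and the CCl4 and vehicle libraries overlapped for all 15. Cyp2b19, Cyp2j12, Cyp4f18 and Cyp4f39 were tested in skin and not in liver, and 12 members were listed at 0 in all 6 skin libraries.

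**Figure D4:**
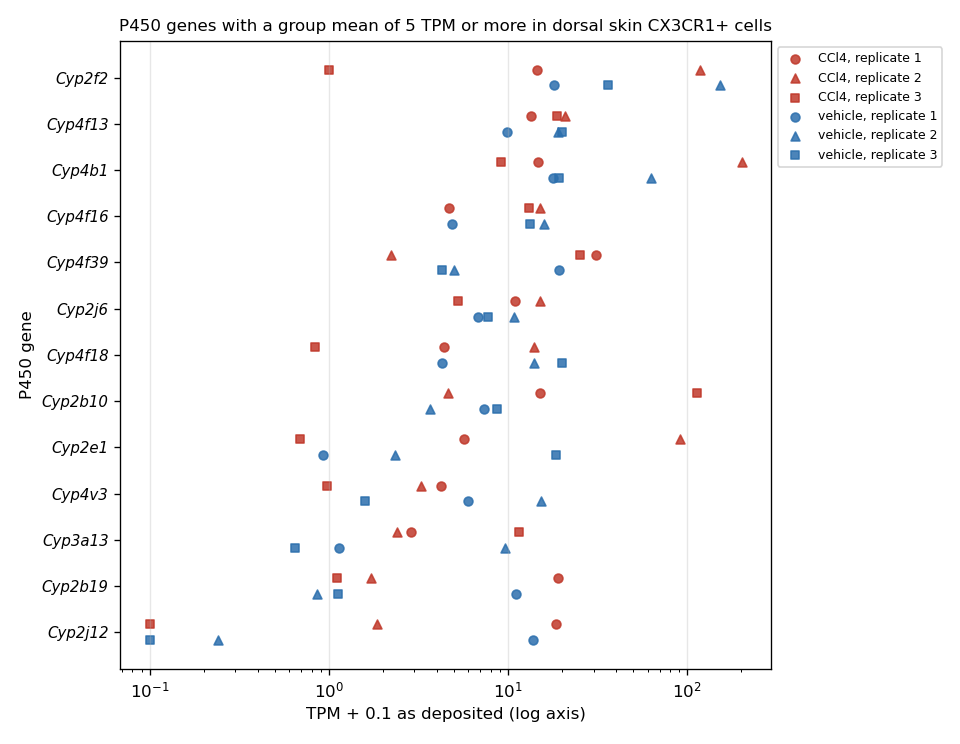
TPM as deposited, plus 0.1 and on a log axis, of the 13 members with a mean of at least 5 TPM in a skin group, in CX3CR1+ skin cells of CCl4 mice and vehicle mice, with the symbol giving the replicate. The groups overlap for all members shown, and single CCl4 libraries stand out for Cyp2b10 at 114 TPM and Cyp2e1 at 90.8 TPM.

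Cyp2e1 had 5.56, 90.8 and 0.59 TPM in CCl4 skin cells, against 0.83, 2.24 and 18.3 TPM in vehicle skin cells, a log2 change of 1.02 ± 1.44 (limma adjusted p = 1). Cyp4b1 had 14.5, 201 and 9.08 TPM in CCl4 skin cells, against 17.6, 62.8 and 19.1 TPM in vehicle skin cells. Cyp2f2 had 14.5, 117 and 0.9 TPM in CCl4 skin cells, against 18, 152 and 35.8 TPM in vehicle skin cells. CCl4 replicate 2 held the highest value of its group for all 3, and for Cyp2e1 and Cyp4b1 the highest of all 6 libraries. That library also stood apart in adipocyte markers, a list chosen after its values were seen, whose sum was 218, 7171 and 63 TPM in CCl4 skin cells, against 64.5, 81.1 and 891 TPM in vehicle skin cells. The fat cell hormone Adipoq stood at 93.4 TPM in it and at 2.17 to 12.8 TPM in the other 5. Cyp2f2 was highest of all 6 libraries in vehicle replicate 2, where the adipocyte sum was 81.1 TPM. Fibroblast markers summed to 454, 4376 and 359 TPM in CCl4 skin cells, against 2168, 6881 and 1619 TPM in vehicle skin cells. That sum was highest in replicate 2 of each group, as were Cyp4b1 and Cyp2f2, whereas Cyp2e1 in vehicle skin cells was highest in replicate 3. The part of adipocyte or fibroblast transcripts in these values was not tested.

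Cyp2b10 had 15, 4.53 and 114 TPM in CCl4 skin cells, against 7.24, 3.55 and 8.61 TPM in vehicle skin cells, a log2 change of 1.60 ± 1.05 (limma adjusted p = 1). Its high value came from CCl4 replicate 3, whose macrophage markers summed to 9.03 TPM, while CCl4 replicates 1 and 2 had 546 and 658 TPM, and the range was 593 to 3062 TPM in vehicle skin cells. Mrc1, a macrophage receptor, was listed at 0 there, and Cx3cr1, the gene behind the label of the cells, was listed at 0 in CCl4 replicate 2 and at most 5.28 TPM in any skin library. The Langerhans cell markers summed to 334 TPM in CCl4 replicate 3 and to 11680 to 46914 TPM in the other 5. The neutrophil markers, in contrast, summed to 588 TPM in CCl4 replicate 3 and to 22.4 to 92.4 TPM in the other 5, and the monocyte markers to 6069 TPM in it and to 12143 to 19055 TPM in the others. The part of these transcripts in its Cyp2b10 value was not tested.

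Cyp4f39, whose human counterpart CYP4F22 makes the very long lipids of the skin barrier, had 30.8, 2.11 and 25.2 TPM in CCl4 skin cells, against 19.1, 4.87 and 4.16 TPM in vehicle skin cells. Cyp2b19, a keratinocyte epoxygenase, had 18.8, 1.62 and 1.01 TPM in CCl4 skin cells, against 10.9, 0.76 and 1.03 TPM in vehicle skin cells. Cyp2j12 had 18.3, 1.75 and 0 TPM in CCl4 skin cells, against 13.6, 0.14 and 0 TPM in vehicle skin cells. Both Cyp2b19 and Cyp2j12 were high in the libraries numbered 1 of either group and low elsewhere, and those libraries also listed more genes above 0, with 28357 for CCl4 and 28870 for vehicle, against 21328 to 23494 in the other 4. Without both of them none of the 14 members tested was called. The keratinocyte markers, which the label of the cells does not include, summed to 1468 to 3920 TPM in CCl4 skin cells and to 1550 to 3469 TPM in vehicle skin cells.

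Cyp4f18, a leukotriene B4 hydroxylase of myeloid cells, had 4.31, 13.9 and 0.74 TPM in CCl4 skin cells, against 4.17, 13.9 and 19.9 TPM in vehicle skin cells. It was lowest in CCl4 replicate 3, the library with few macrophage markers. Cyp4f13 and Cyp4f16, like Cyp2j6 and several other members, were found in all 6 skin libraries. Cyp4f13 had 13.3, 20.6 and 18.6 TPM in CCl4 skin cells, against 9.76, 19 and 19.8 TPM in vehicle skin cells. Cyp4f16 had 4.58, 15 and 12.9 TPM in CCl4 skin cells, against 4.79, 15.8 and 13.2 TPM in vehicle skin cells. Their changes were 0.14 ± 0.62 and -0.05 ± 0.74. Cyp2j6 had 10.8, 15 and 5.17 TPM in CCl4 skin cells, against 6.69, 10.7 and 7.61 TPM in vehicle skin cells. Cyp4v3 and Cyp3a13 varied within both groups, Cyp4v3 with 0.88 to 4.11 TPM in CCl4 skin cells and 1.48 to 15.2 TPM in vehicle skin cells, and Cyp3a13 with 2.29 to 11.4 TPM in CCl4 skin cells and 0.55 to 9.46 TPM in vehicle skin cells.

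Whether the CCl4 effect differed between liver and skin was tested in 1 limma fit over all 12 libraries for the 11 members that passed the filter in both tissues. None was called, against 0.216% of 9255 genes (20 genes), and 4 of the 11 members had an unadjusted p under 0.05, as had 1872 of the 9255 genes. Cyp2e1 had the liver change minus the skin change at -5.34 ± 1.69 (limma adjusted p = 0.13), and at -3.73 without skin CCl4 replicate 2. Assay and strain differ between the tissues, so the tissue cannot be told apart from them.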

How the data were processed

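Liver RNA and smart-seq libraries of CX3CR1+ skin cells were measured in mice given CCl4 or vehicle, 3 libraries per group. The authors deposited 1 TPM table of 57180 genes, and per the submitters' processing notes fastp, HISAT2, StringTie, RSEM and GRCm39 were used; these notes give no versions or roles. TPM divides by transcript length and fixes each library's total, so depth is unknown and a gene set that takes more of the total lowers all others. A symbol was found for 51884 gene IDs, and 66 duplicates were left without one.

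Values were analysed as log2(TPM + 1) with limma 3.58.1 in R 4.3.3 (lmFit, eBayes with trend, two-sided), liver and skin apart, over genes that reached a TPM of 1 in 3 or more of the 6 libraries. P-values were Benjamini-Hochberg adjusted over all genes tested, and calls were made under 0.05. They measure the spread between these libraries. The test was tried on simulated data with known changes, drawn with the same spread in both groups. The members' sum varied more between CCl4 livers (SD 1617 TPM) than between vehicle livers (SD 374 TPM). That trial therefore does not show how the test performs on these livers. The nuclear scale divides by the summed TPM of genes with a symbol that is neither mitochondrial nor a Gm number.

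The members and all gene lists were chosen with earlier results of these data known. Members with a mean of at least 5 TPM in a group are named, with Cyp2e1, and from each pathway list up to 3 called genes with the largest change. Cyp2g1, Cyp2j9, Cyp2d12, Cyp2a22, Cyp2c65 and Cyp3a57 fall outside this rule and were named after their values were seen, Cyp2u1, Cyp4a31, Cyp2b13, Cyp3a16, Cyp3a41a and Cyp3a41b come from the role lists, and Por, Alas1, Nr1i2, Nr1i3 and Ppara were added for their role. Promoters are from RefSeq (GRCm38.p6), and chromosomes and coding sequences from GENCODE M21 (GRCm38), so their build is not that of the TPM values. Identity is 100% less the edit distance over the longer coding sequence.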

Additional observations from a re-analysis of the deposited data

How the results depend on the processing

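Results were recomputed with pseudocounts of 0.1 and 5, without the filter (any TPM above 0), with the filter raised to 5 TPM, under 3 other scalings, with a replicate block, in 1 fit over all 12 libraries and with each library left out in turn. The count of members lower in liver was 41 and fell to 25 over named nuclear genes. It was 31 in 1 fit over all 12 libraries, where Cyp2a5, Cyp2c70, Cyp2d12, Cyp2d22, Cyp2f2, Cyp3a11, Cyp3a13, Cyp4a31, Cyp4f14 and Cyp4f17 lost their call. Without single CCl4 libraries it was 39 to 41. Without any 1 vehicle library it was 36, when Cyp2c38, Cyp2c69, Cyp2g1 and Cyp2u1 no longer passed the filter and were not tested. The count of members higher in liver was 1. It was 6 over named nuclear genes, 3 under median-ratio scaling, under quantile normalization and without the filter, and 0 in 1 fit over all 12 libraries. It was 1 to 2 without single libraries. Replicate numbers are those of the sample titles. For liver CCl4 replicate 3, skin CCl4 replicate 3 and skin vehicle replicates 2 and 3 the library name carries another number. The deviations of same-numbered liver libraries correlated at -0.0381, 0.0796 and 0.0683, and those of differently numbered ones at -0.1122 to 0.0761. These values do not show whether the liver samples were paired. In skin same-numbered libraries correlated at 0.5867, 0.0923 and 0.3497, and differently numbered ones at -0.5085 to 0.1581. With the replicate block 716 skin genes had an unadjusted limma p under 0.05, against 288 without it. Whether skin libraries share an effect of the replicate number was not tested. With the replicate block 41 liver members were lower and 3 higher (Cyp4b1 with Cyp2a4 and Cyp2c55), and 0 skin members were called. In this balanced design a block leaves the estimate as it is, -4.32 for Cyp2e1, and bears on the calls alone. The count whose effect differed between tissues was 9 without the filter, against 0, and 0 under the other alternatives. No skin member was called under any alternative run, among them skin without both libraries numbered 1, which was chosen after seeing the data. The share of 2C differed by 0.358 points between CCl4 and vehicle livers. This value was -1.36 to 3.31 without single libraries, with -0.875 without CCl4 replicate 3 and -0.173 without vehicle replicate 2, and -3.71 with Cyp2e1 left out of the total. The share of 2D differed by -7.26 points, and by -10.6 with Cyp2e1 left out, which follows from the smaller total. Values over named nuclear genes with a sign opposite to that as deposited were 0.07 for Cyp2a5, 1.48 for Cyp2b10, 0.09 for Cyp2c70, 0.39 for Cyp2d12, 0.22 for Cyp2j6, 1.26 for Cyp2j9, 0.39 for Cyp3a11, 0.00 for Cyp3a59, 0.50 for Cyp4a31, 0.23 for Cyp4f13, 0.44 for Cyp4f17, 0.24 for Nr1i2, 0.37 for Nr1i3, 0.47 for Por and 0.31 for Alas1. Cyp2b10 stood at 0.37 and Cyp2j9 at 0.24 under median-ratio scaling. Under quantile normalization Cyp2b10 stood at 0.65, Cyp2j9 at 0.07 and Cyp3a11 at 0.45. Without single libraries Cyp2b10 ranged from -0.63 (without CCl4 replicate 3, when it was called lower) to 0.08 (without CCl4 replicate 2). The scalings change the total that each value is divided by, and which total reflects the cells was not tested. Of 965 values of single genes under an alternative, 857 kept direction and side of the threshold, 74 lost their call, 13 gained one and 21 changed sign. TPM carries no depth, so the counting error of members near 1 TPM is unknown.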

Other observations

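Of the 77 members, 61, 61 and 59 were listed above 0 in CCl4 livers, against 57 in all 3 vehicle livers. Over all genes 19933, 20757 and 19473 were listed above 0 in CCl4 livers, against 17568, 17828 and 17602 in vehicle livers, a larger relative difference than for the members. Of the members 41, 43 and 45 reached 1 TPM in CCl4 livers, against 46, 46 and 48 in vehicle livers. Across the 47 tested members, the mean level in vehicle livers and the change on the nuclear scale had a Spearman rho of -0.39. Both measures share the vehicle libraries, and genes are not independent replicates.

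In the skin cells Cyp3a57 had 8.79, 0.84 and 0 TPM with CCl4, against 13.3, 0 and 0 TPM with vehicle. Like Cyp2b19 and Cyp2j12 it was highest in the library numbered 1 of each group.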
